A study of Mus musculus with 28 samples.

Results

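The Desert hedgehog pathway was followed through 9 genes chosen by name: the ligand Dhh, the receptor Ptch1, the signal transducer Smo, the co-receptors Boc and Gas1, the decoy receptor Hhip and the transcription factors Gli1, Gli2 and Gli3. All 9 were found among the 41605 genes of the count table, and all 9 passed the filter on low counts that left 17700 genes for testing. The counts came from bulk poly-A RNA sequencing of wild-type C57BL/6J mouse peripheral nerve, with 4 libraries at each of 7 stages and 28 libraries in all. The stages were embryonic days E13 and E17, postnatal days P1, P5, P14 and P24, and the young adult at P60. Mice were neither perfused nor treated, so age was the compared factor. The E13 libraries stood apart in their tissue: each held various nerves of 2 pooled embryos that were not stripped, although the label reads sciatic nerve. Each E17 library held the sciatic nerves of 2 embryos and each postnatal library those of 1 mouse, and from E17 on the epineurium and perineurium were peeled off to enrich the endoneurium. In comparisons with E13, age, nerve and dissection therefore cannot be told apart. Each stage held 2 libraries from males and 2 from females, and the labels do not say which is which.

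Desert hedgehog is a secreted protein that Schwann cells, the glia of peripheral nerve, release toward the connective tissue around them. Mice that lack it form a thin, leaky perineurium, the layered cell sheath that wraps each nerve fascicle. In a cell that receives the signal, the ligand binds Patched 1, which otherwise keeps Smoothened inactive. Active Smoothened lets the GLI factors switch on their target genes. Ptch1, Gli1 and Hhip are themselves such targets in many tissues, so that their RNA is often read as a gauge of pathway activity, while GLI3 works mostly as a repressor when no ligand is present.

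Positions of genes are given in GRCm38 (GENCODE M21). Of the 9 genes, 7 had an entry in the RefSeq promoter table (GRCm38.p6), and Gli1 and Boc had none. The 250 bases before the annotated start are shown for Dhh, Ptch1 and Hhip because these genes had different courses over the stages, and for Gli2 because its stretch alone held the core of the GLI binding sequence. All 4 genes are read from the minus strand, none of the stretches overlapped an annotated exon (that of Ptch1 lies inside the gene, whose GENCODE model starts farther upstream), and capitals mark the core ACCACCC or its reverse complement GGGTGGT.
Dhh, chr15:98898541-98898790, minus strand: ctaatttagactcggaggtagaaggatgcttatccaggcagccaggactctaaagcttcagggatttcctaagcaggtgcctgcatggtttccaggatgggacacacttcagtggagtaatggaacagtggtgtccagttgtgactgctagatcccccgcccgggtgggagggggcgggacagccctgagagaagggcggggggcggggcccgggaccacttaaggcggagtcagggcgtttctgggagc
Ptch1, chr13:63565736-63565985, minus strand: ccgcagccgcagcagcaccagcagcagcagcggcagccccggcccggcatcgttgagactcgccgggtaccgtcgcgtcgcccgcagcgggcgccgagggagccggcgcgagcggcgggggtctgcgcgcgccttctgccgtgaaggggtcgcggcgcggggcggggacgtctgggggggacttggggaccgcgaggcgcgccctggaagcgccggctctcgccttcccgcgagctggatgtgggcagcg
Hhip, chr8:80058009-80058258, minus strand: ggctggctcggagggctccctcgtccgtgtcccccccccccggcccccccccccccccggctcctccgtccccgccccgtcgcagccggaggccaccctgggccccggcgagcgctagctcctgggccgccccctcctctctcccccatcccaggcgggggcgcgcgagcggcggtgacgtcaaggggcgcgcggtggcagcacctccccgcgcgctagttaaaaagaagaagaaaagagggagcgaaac
Gli2, chr1:119053620-119053869, minus strand: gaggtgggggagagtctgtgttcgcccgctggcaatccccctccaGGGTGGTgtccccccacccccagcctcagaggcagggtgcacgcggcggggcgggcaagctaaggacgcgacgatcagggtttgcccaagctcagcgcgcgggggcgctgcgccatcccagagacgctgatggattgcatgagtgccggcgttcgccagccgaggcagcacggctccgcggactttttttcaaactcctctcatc
The GLI consensus GACCACCCA, searched on both strands, was in none of the 7 stretches and in 0.225% of 32851 promoter stretches of the same length. Its core ACCACCC was in 3.92% of them and, among the 7, in Gli2 alone, where the match starts 205 bases before the start of transcription. These are matches of letters in a short window and say nothing of binding elsewhere.

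Total counts ran from 13899895 to 37662780 per library. Levels are given as CPM, counts scaled to a common total, on TMM-scaled library sizes, and levels of different genes are compared only after division by the summed exon length, as CPM per kilobase. A gene was called in a comparison when its adjusted p in edgeR's quasi-likelihood test (Benjamini-Hochberg over 17700 genes) was under 0.05 and its fold change was at least 2. The labelled tissue carried its defining markers: the summed level of 5 Schwann lineage markers (Sox10, Erbb3, S100b, Foxd3 and Cdh19) lay between 212 and 528 CPM at E13 and between 1440 and 2386 CPM in all later libraries. The E13 libraries also held RNA of other cells, with a summed level of 5 neuronal cell body markers of 822 to 1710 CPM against 19.7 to 27.5 CPM at E17, and of 5 skeletal muscle markers of 21.5 to 500 CPM against 4.44 to 18.3 CPM. In whole nerve, fewer cells of a type and less RNA per cell cannot be told apart, which holds for every level below.

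Over the 7 stages, the ligand rose early and stayed high, and Hhip and Gli3 fell to a small remainder of their embryonic level. By stage means, Ptch1 and Gli1 were highest at P60 and, after E17, lowest at P14, although Gli1 differed by only -0.04 on the log2 scale between P14 and P5. Gli2, Boc and Gas1 were highest at E13. In the test of all stage terms together, 8 of the 9 members were called, against 70.3% of all genes tested. The exception was Smo, with an adjusted p of 4.2e-06 but stage means only 0.92 apart on the log2 scale. Without the E13 libraries the count was 6, against 53.6% of all genes tested in that fit, and Dhh and Gas1 were no longer called. Dhh kept an adjusted p of 3.5e-08 in edgeR and missed only the minimum distance, with stage means 0.74 apart on the log2 scale. Gas1 passed neither, with an adjusted p of 0.169 and stage means 0.73 apart. On TMM-scaled levels, Dhh and Smo had the same order of stages and the other members each another. With library size alone the orders of Dhh and Smo differed, and Smo was then highest at P5 and lowest at P60. Most neighbours in the TMM-scaled orders were not separated: of the 6 neighbouring pairs, the 4 and 4 libraries did not overlap in 2 pairs for Ptch1, Smo and Gli3, in 1 pair for Dhh, Hhip and Gas1, and in no pair for Gli1, Gli2 and Boc.

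**Figure D1:**
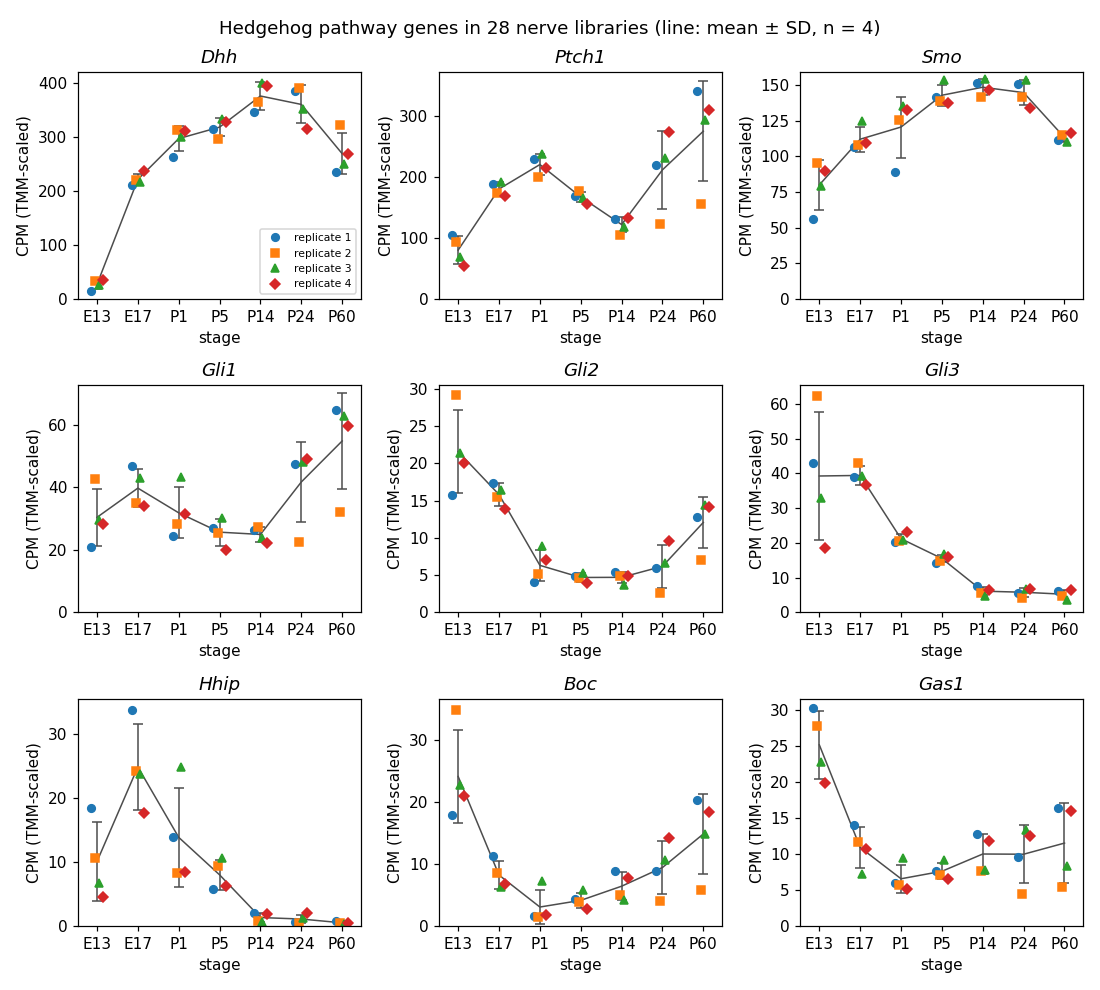
Level of each member in every library (CPM on TMM-scaled library sizes, linear axes from 0) by stage, with the 4 replicates as separate symbols and the line and bars as mean ± SD (n = 4). Dhh climbs from 27.0 CPM at E13 to 377 CPM at P14, Hhip drops from 24.8 CPM at E17 to 0.479 CPM at P60, and replicate 2 lies low at P24 and P60 in Ptch1, Gli1, Gli2, Boc and Gas1.

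Of the 9 members, 5 were called at E17 against E13, where 35.5% of all genes were called. Dhh, Ptch1 and Hhip were higher (14.2% of all genes were) and Boc and Gas1 lower (21.2%). At P1 against E17, 2 members were called against 11.7% of all genes, namely Gli2 and Boc, each lower at P1 (5.41% of all genes were). At P5 against P1, no member was called by edgeR, DESeq2 or limma-voom, against 5.84% of all genes, and none had an unadjusted p under 0.05. At P14 against P5, Gli3 and Hhip were called, against 12.0% of all genes, each lower at P14 (4.91%). No member was called by any of the 3 tools at P24 against P14 (2.65% of all genes, 2 members with an unadjusted p under 0.05 in edgeR) or at P60 against P24 (5.96% of all genes, 3 such members). At P60 against E17, which spans the stages of stripped sciatic nerve, Gli3 and Hhip were called, against 39.7% of all genes, each lower at P60, and no member was called higher, against 22.2% of all genes. The E17 libraries enter 3 of these comparisons, and each adjacent pair shares a stage with the next, so the comparisons are not independent.

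The ranges of the 4 and 4 libraries did not overlap for 5 members at E17 against E13, where this held for 46.8% of all genes, for 4 at P1 against E17 (38.2%), for 3 at P5 against P1 (30.4%), for 4 at P14 against P5 (43.6%), for none at P24 against P14 (16.5%), for 1 at P60 against P24 (27.2%) and for 2 at P60 against E17 (67.7%). Whether the members differ from all genes in this, at P60 against E17 or elsewhere, was not tested.

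**Figure D2:**
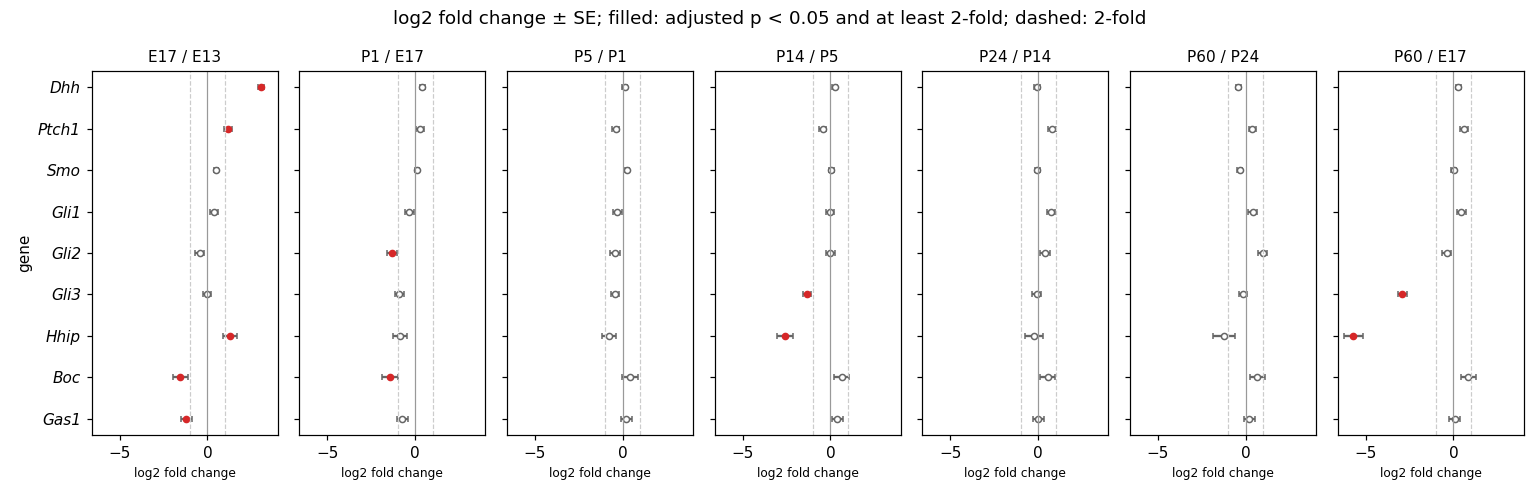
log2 fold change ± SE of the 9 members in the 7 comparisons (x axis; edgeR, all 28 libraries in the fit), with filled points for calls and dashed lines at 2-fold. The calls lie at E17 against E13 (5), P1 against E17 (2), P14 against P5 (2) and P60 against E17 (2), and the largest fall is that of Hhip at P60 against E17, -5.70.

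Dhh (ENSMUSG00000023000, chr15:98891152-98898540, minus strand), the ligand, was the most abundant member per length from E17 on. Its level was 15.1, 32.7, 25.8 and 34.2 CPM in the 4 E13 libraries and 212, 221, 218 and 237 CPM at E17. The groups were far apart, and Dhh rose by 3.04 ± 0.17 on the log2 scale (8.24-fold, edgeR adjusted p = 1.5e-14). All 5 Schwann lineage markers were also called higher at E17 than at E13, with a median log2 fold change of 1.64 and a range from 1.47 to 4.53, and their part in the rise of Dhh was not tested.

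After E17, Dhh still changed, but by less than 2-fold. In the fit lacking E13, its stage means lay 0.74 apart on the log2 scale (edgeR adjusted p = 3.5e-08 over the stages). Dhh stood at 264, 313, 300 and 313 CPM at P1, at 316, 297, 335 and 328 CPM at P5, and at 347, 365, 400 and 395 CPM at P14. Every P14 library lay above those of E17, a difference that was not tested by itself. The P1 libraries all lay above those of E17 (log2 difference 0.42 ± 0.15, edgeR adjusted p = 0.038), short of 2-fold. The highest stage mean was 377 ± 25.5 CPM (SD, n = 4) at P14. The level was 386, 391, 352 and 315 CPM at P24 and 235, 323, 250 and 269 CPM at P60, with overlapping libraries and a log2 difference of -0.42 ± 0.15 that missed the threshold (edgeR adjusted p = 0.0622). Adult and E17 nerve did not differ beyond the spread: the log2 difference was 0.28, with a 95% interval from -0.02 to 0.58 (edgeR adjusted p = 0.112). Under scaling by library size alone that difference became -0.04, and P1 rather than P14 was the highest stage.

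Dhh shares 546 exon bases with Rhebl1 on the same strand and 1107 with Gm49442 on the other strand. Rhebl1 had 3065 counts in all libraries together against 165099 for Dhh, and Gm49442 was not among the genes counted. How reads in the shared bases were assigned is not stated in the sources used here.

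Ptch1 (ENSMUSG00000021466, chr13:63508328-63573598, minus strand), which encodes the receptor, followed a different course from the ligand. Its level was 104, 93.5, 69.1 and 53.1 CPM at E13 and 188, 173, 191 and 168 CPM at E17. All E17 libraries were higher, and Ptch1 rose by 1.17 ± 0.21 on the log2 scale (2.25-fold, edgeR adjusted p = 3.0e-05). Under scaling by library size alone the value was 0.91 and no longer reached 2-fold.

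From P1 to P14, the Ptch1 level went down while that of Dhh did not. It was 229, 200, 238 and 214 CPM at P1, 169, 178, 166 and 156 CPM at P5, and 131, 105, 119 and 133 CPM at P14. These 3 sets of libraries did not overlap, but neither step was called: the log2 differences were -0.40 ± 0.21 for P5 against P1 (edgeR adjusted p = 0.211) and -0.45 ± 0.21 for P14 against P5 (edgeR adjusted p = 0.106). Both SE rest on a spread pooled over all stages. The SD was 16.9, 8.92 and 12.9 CPM at P1, P5 and P14 but 82.1 CPM at P60. P14 was not tested against P1. At P24 the level was 219, 123, 230 and 274 CPM, so that 3 libraries lay above the P14 range and replicate 2 within it. The log2 difference to P14, 0.80 ± 0.21, passed the adjusted p (edgeR, 0.0213) but not the 2-fold minimum. At P60 the level was 340, 155, 294 and 310 CPM, again with replicate 2 low. The stage mean was the highest at P60, 275 ± 82.1 CPM (SD, n = 4), and exceeded that of E17 by 0.61 ± 0.21 on the log2 scale (edgeR adjusted p = 0.0131), short of 2-fold.

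Smo (ENSMUSG00000001761, chr6:29735503-29761365, plus strand), the membrane protein that carries the signal onward, had the flattest course. Its stage means ran from 79.9 ± 17.4 CPM at E13 through 112 ± 8.64 CPM at E17 to 149 ± 5.67 CPM at P14 and back to 113 ± 2.97 CPM at P60 (SD, n = 4). The 4 E17 libraries, 106 to 125 CPM, lay above the E13 range of 55.8 to 95.3 CPM, with a log2 difference of 0.49 ± 0.13 (edgeR adjusted p = 0.00156), short of 2-fold. The P60 libraries, 110 to 116 CPM, lay below the P24 range of 134 to 153 CPM, yet that difference of -0.35 ± 0.13 missed the threshold (edgeR adjusted p = 0.0553). P60 and E17 differed by 0.01 on the log2 scale, with a 95% interval from -0.23 to 0.26.

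The co-receptors Boc (ENSMUSG00000022687, chr16:44485049-44558897, minus strand) and Gas1 (ENSMUSG00000052957, chr13:60174405-60177365, minus strand), cell surface proteins that help the ligand bind Patched, were both highest at E13. Boc was at 17.9, 34.9, 22.7 and 21.1 CPM at E13 and at 11.2, 8.56, 6.32 and 6.72 CPM at E17. The groups did not overlap, and Boc fell by 1.56 on the log2 scale (SE 0.43, edgeR adjusted p = 0.00271). Gas1 was at 30.3, 27.8, 22.7 and 19.9 CPM at E13 and at 14.1, 11.7, 7.18 and 10.7 CPM at E17. It fell by 1.21 on the log2 scale (SE 0.31, edgeR adjusted p = 0.0014). These falls came with the change of tissue between E13 and E17, and the part of the non-Schwann cells in the E13 samples was not tested.

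Boc fell once more, by 1.42 on the log2 scale, from E17 to P1 (SE 0.45, edgeR adjusted p = 0.0163), and this call rested on few libraries. At P1 the level was 1.68, 1.50 and 1.83 CPM in replicates 1, 2 and 4 and 7.18 CPM in replicate 3, within the E17 range. Leaving out E17 replicate 1 or P1 replicate 1, 2 or 4 ended the call, with values from -1.24 to -1.20, while the value without P1 replicate 3 was -2.28. Gas1, too, was highest of its stage in P1 replicate 3, at 9.48 CPM against 5.12 to 6.01 CPM. That library also had the highest summed level of 6 epineurial markers at P1, 23.0 CPM against 6.75 to 11.0 CPM, and their part in its Boc level was not tested.

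From P1 on, the stage means of Boc went up at each step to 14.8 ± 6.50 CPM (SD, n = 4) at P60, without a call at any step. P60 exceeded E17 by 0.86 ± 0.43 on the log2 scale (edgeR adjusted p = 0.0829). Without P60 replicate 2, the lowest library at 5.73 CPM against 14.8 to 20.4 CPM, the value was 1.12 and the gene was called. No step of Gas1 after E17 was called. It was at 11.5 ± 5.51 CPM at P60, close to its E17 mean of 10.9 ± 2.87 CPM (SD, n = 4), with a log2 difference of 0.08 and a 95% interval from -0.53 to 0.70. Gas1 shares 589 exon bases with Gm48488, which had 55 counts in all libraries against 7376 for Gas1.

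Hhip (ENSMUSG00000064325, chr8:79965851-80058006, minus strand) encodes a membrane protein that binds hedgehog ligands and holds them away from Patched, and it had the widest range of the 9 genes. Its level was 18.4, 10.6, 6.75 and 4.47 CPM at E13 and 33.8, 24.2, 23.7 and 17.7 CPM at E17. Hhip rose between these stages by 1.30 ± 0.40 on the log2 scale (edgeR adjusted p = 0.00667), although the lowest E17 library lay below the highest of E13. At P1 it was 13.9, 8.20, 24.8 and 8.44 CPM, with replicate 3 high as for Boc. The difference from E17, -0.84 ± 0.40 on the log2 scale, was not called (edgeR adjusted p = 0.113), but it was called without P1 replicate 3 (-1.27) and in limma-voom (-1.03).

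At P5 every Hhip library lay below those of E17, and the only fall called between adjacent stages was the next one, to P14. The level was 5.79, 9.40, 10.6 and 6.17 CPM at P5 and 1.99, 0.791, 0.613 and 1.82 CPM at P14. No library overlapped, and Hhip fell by 2.60 on the log2 scale (SE 0.46, 6.07-fold lower, edgeR adjusted p = 7.6e-05). It was 0.631, 0.471, 1.19 and 1.99 CPM at P24 and 0.731, 0.435, 0.373 and 0.377 CPM at P60. The P60 values rest on 6 to 10 counts per library, so they are coarse, but each is far under the E17 values of 281 to 615 counts. From E17 to P60, Hhip fell by 5.70 on the log2 scale (SE 0.55, 51.9-fold lower, edgeR adjusted p = 8.2e-10). Hhip shares 175 exon bases with Gm27820 on the opposite strand, which had 0 counts.

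Hhip parted from Ptch1, the other receptor-level target. Within a library, the log2 ratio of Hhip to Ptch1 per length was -2.25 ± 0.33 at E17, -6.07 ± 0.74 at P14 and -8.52 ± 0.59 at P60 (SD, n = 4), with no overlap between these stages. These ratios were chosen after the values were seen. All 4 proliferation markers (Mki67, Top2a, Ccnb1 and Cdk1) were called higher at E17 than at E13 and lower at P14 than at P5 and at P60 than at E17, and their summed level went from 525 to 654 CPM at P5 to 107 to 143 CPM at P14 and 3.79 to 5.27 CPM at P60. Their part in the level of Hhip was not tested.

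Gli1 (ENSMUSG00000025407, chr10:127329882-127341974, minus strand), the activator whose transcription depends on the pathway itself, had its lowest stage mean at P14 and its highest at P60, without a call in any comparison of 2 stages. It was 21.0, 42.7, 29.6 and 28.3 CPM at E13 and 46.7, 35.1, 43.1 and 34.1 CPM at E17. It was 24.5, 28.3, 43.2 and 31.4 CPM at P1, 27.1, 25.4, 30.2 and 19.9 CPM at P5, and 26.3, 27.4, 23.9 and 22.1 CPM at P14. Neighbouring stages overlapped throughout, and no step up to P14 was called, the smallest adjusted p in edgeR being 0.157 at E17 against E13.

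At P24, Gli1 was 47.5, 22.4, 48.0 and 49.0 CPM, and at P60 it was 64.8, 32.1, 62.9 and 59.5 CPM. In each stage 3 libraries lay close together and replicate 2 lay apart. The difference between P24 and P14 was 0.74 ± 0.24 on the log2 scale and missed the threshold (edgeR adjusted p = 0.0696). That between P60 and E17 was 0.46 ± 0.24, with a 95% interval from 0.00 to 0.93 (edgeR adjusted p = 0.0885). Over the whole timeline Gli1 was called (adjusted p = 5.3e-04), with stage means 1.09 apart on the log2 scale. Gli1 shares 62 exon bases with Arhgap9 on the opposite strand, which had 1254 counts in all libraries against 21309 for Gli1, and 265 with Gm47200, also on the opposite strand, which had 1 count.

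The 2 other GLI genes were both lower at P1 than at E17 and took different courses afterwards. All 3 immature Schwann markers (Ngfr, Ncam1 and L1cam) were called lower at P1 than at E17 (median log2 fold change -1.27) and at P60 than at E17 (-2.82), and all 4 proliferation markers lower at P14 than at P5 (median -2.18) and at P60 than at E17 (-8.78). Their part in the levels of Gli2 and Gli3 was not tested. Gli2 (ENSMUSG00000048402, chr1:118834132-119053619, minus strand), the main activator in many tissues, was 17.4, 15.5, 16.5 and 13.9 CPM at E17 and 4.12, 5.21, 8.93 and 7.01 CPM at P1. The libraries did not overlap, and Gli2 fell by 1.32 on the log2 scale (SE 0.28, 2.50-fold lower, edgeR adjusted p = 5.4e-04). It stayed between 3.68 and 5.42 CPM at P5 and P14. At P60 it was back at 12.8, 7.04, 14.4 and 14.1 CPM. The P60 mean exceeded that of P24 by 0.96 ± 0.28 on the log2 scale (edgeR adjusted p = 0.0186), just short of 2-fold, and the difference was called without P24 replicate 4 (1.26) or P60 replicate 2 (1.14).

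Gli3 (ENSMUSG00000021318, chr13:15463235-15730026, plus strand), the main repressor of the family, did not come back. It was 38.9, 42.9, 39.2 and 36.6 CPM at E17, 20.2, 20.7, 20.8 and 23.1 CPM at P1 and 14.3, 14.9, 16.8 and 15.9 CPM at P5. These 3 sets did not overlap. The P1 value was lower than that of E17 by 0.89 on the log2 scale (SE 0.23, edgeR adjusted p = 0.00368), short of 2-fold, and with library size alone the value was -1.01 and called. At P14 the level was 7.67, 5.54, 4.78 and 6.46 CPM, and Gli3 fell from P5 by 1.34 on the log2 scale (SE 0.24, 2.54-fold lower, edgeR adjusted p = 9.0e-05). It was 5.44, 4.08, 6.87 and 6.81 CPM at P24 and 6.21, 4.64, 3.67 and 6.34 CPM at P60. From E17 to P60, Gli3 fell by 2.92 on the log2 scale (SE 0.25, 7.56-fold lower, edgeR adjusted p = 9.3e-11). The E13 libraries were scattered between 18.6 and 62.4 CPM and gave no call against E17, and with DESeq2's size factors or library size alone the highest stage mean was that of E13. Gli3 shares 188 exon bases with Gm6556, which had 259 counts in all libraries against 12594 for Gli3.

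The makeup of the GLI transcripts shifted with age. Per length, Gli1 took 46.0% ± 6.50 of the summed level of the 3 genes at E13, 55.2% ± 3.37 at E17, 68.8% ± 3.20 at P5, 79.1% ± 2.96 at P14 and 82.4% ± 1.44 at P60 (SD, n = 4), with the highest mean at P24, 84.8% ± 1.90. The share of Gli3 was 28.8% ± 3.14 at E17, 22.0% ± 3.20 at P5, 10.1% ± 1.78 at P14 and, after 6.38% ± 1.21 at P24, 4.34% ± 1.46 at P60. Every P14, P24 and P60 library had a Gli1 share of at least 76.3%, and no earlier library exceeded 71.4%. The Gli2 share was lowest at P24, 8.83% ± 2.00, and 13.2% ± 0.941 at P60. The Gli1 share of P24 and of P60, with replicate 2 included, ranged from 81.0% to 86.9%, and such shares are free of the scaling between libraries. The shares were computed after the levels had been seen and are a description with no test.

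**Figure D3:**
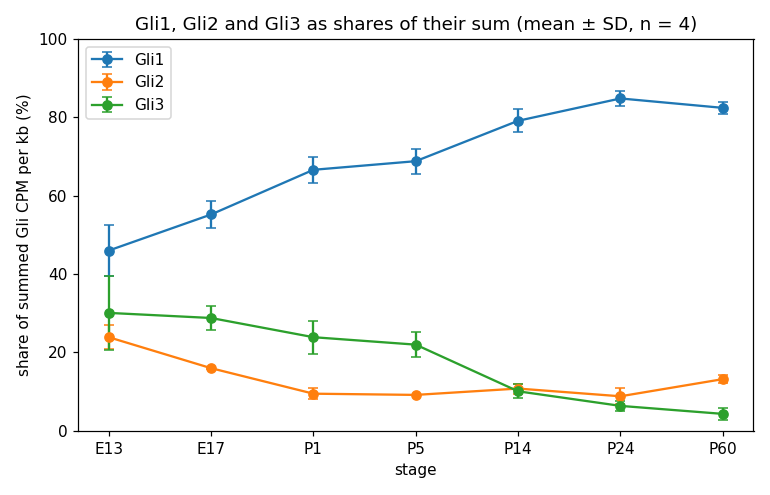
Share of Gli1, Gli2 and Gli3 in their summed level per length (y axis, percent of CPM per kilobase) by stage, as mean ± SD of 4 libraries. Gli1 goes from 46.0% at E13 to 84.8% at P24 and 82.4% at P60, Gli3 from 30.1% to 4.34%, and Gli2 is between 8.83% and 13.2% from P1 on.

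Per length, the order of the members changed between E17 and P60 mainly at the bottom. At E17 Dhh stood at 50.4 CPM per kilobase, Smo at 19.9, Ptch1 at 12.7 and Gli1 at 7.96, followed by Gli3 at 4.11, Gas1 at 3.69, Hhip at 2.74, Gli2 at 2.30 and Boc at 1.84. At P60 Dhh stood at 61.3, Smo at 20.1, Ptch1 at 19.4 and Gli1 at 11.0 CPM per kilobase, but Ptch1 lay below Smo only in replicate 2 and above it in the other 3 libraries. Gas1 at 3.89, Boc at 3.34, Gli2 at 1.76, Gli3 at 0.544 and Hhip at 0.0528 CPM per kilobase followed. Lengths are the summed exons of all annotated transcripts, 14185 bases for Ptch1 and 4399 for Dhh, and understate a gene that uses only short transcripts.

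The distance of Ptch1 and Gli1 from the ligand was widest at P14 by stage means, and that of Hhip at P60. The log2 ratio of Ptch1 to Dhh per length was -1.99 ± 0.15 at E17, -2.62 ± 0.14 at P5 and -3.32 ± 0.18 at P14, then -2.51 ± 0.62 at P24 and -1.71 ± 0.71 at P60 (SD, n = 4). That of Gli1 to Dhh was -2.68 ± 0.28 at E17, -4.10 ± 0.23 at P14 and -2.52 ± 0.67 at P60. In both ratios all P14 libraries lay below all E17 libraries, while of the P60 libraries replicate 2 lay below all E17 libraries and the other 3 above them, in Gli1 by a small margin. The log2 ratio of Hhip to Dhh was -4.24 ± 0.45 at E17, -9.39 ± 0.90 at P14 and -10.23 ± 0.57 at P60 (SD, n = 4), where the ranges of P14 and P60 overlapped. The ratios, chosen after the values were seen, carry no test.

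Libraries P24 replicate 2 and P60 replicate 2 shared a profile over the members. Each was the lowest of its stage in Ptch1, Gli1, Gli2, Boc and Gas1 and the highest in Dhh. Of all genes tested, 9.14% had these 2 libraries lowest at both stages and 10.7% had them highest. Ptch1 in the 2 libraries was 123 and 155 CPM against 219 to 274 and 294 to 340 CPM in the others, and Gli1 was 22.4 and 32.1 CPM against 47.5 to 49.0 and 59.5 to 64.8 CPM. Smo, at 141 and 115 CPM, lay inside the range of the others.

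The same 2 libraries had the lowest perineurial and epineurial marker sums of their stages and the highest Schwann sums. The sum of 6 perineurial markers (Slc2a1, Cldn1, Itgb4, Msln, Lypd2 and Krt19) was 531 CPM in P24 replicate 2 against 838 to 870 CPM, and 1014 CPM in P60 replicate 2 against 1358 to 1473 CPM. Itgb4 alone made up most of this sum, with a stage mean of 423 of 772 CPM at P24 and 814 of 1300 CPM at P60. The sum of 6 epineurial markers was 82.2 CPM against 149 to 196 CPM at P24, and 129 CPM against 150 to 169 CPM at P60. Their Schwann lineage sums were 2210 against 1752 to 1916 CPM and 2386 against 2123 to 2278 CPM, and their sums of 6 myelinating Schwann markers were 124900 against 95030 to 109600 CPM and 85570 against 66840 to 73570 CPM. The sum of 6 endoneurial mesenchyme markers was 244 CPM in P24 replicate 2 against 353 to 467 CPM, but 347 CPM in P60 replicate 2, inside the range of 346 to 470 CPM. In its perineurial sum and its Ptch1 and Gli1 levels, P24 replicate 2 lay within the range of the P14 libraries, while its proliferation sum of 40.8 CPM lay with P24 (42.5 to 57.1 CPM) and not with P14 (107 to 143 CPM). How much of the sheaths stayed on each nerve after stripping was not recorded in the labels, and the part of these cell types in the members' levels was not tested.

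**Figure D4:**
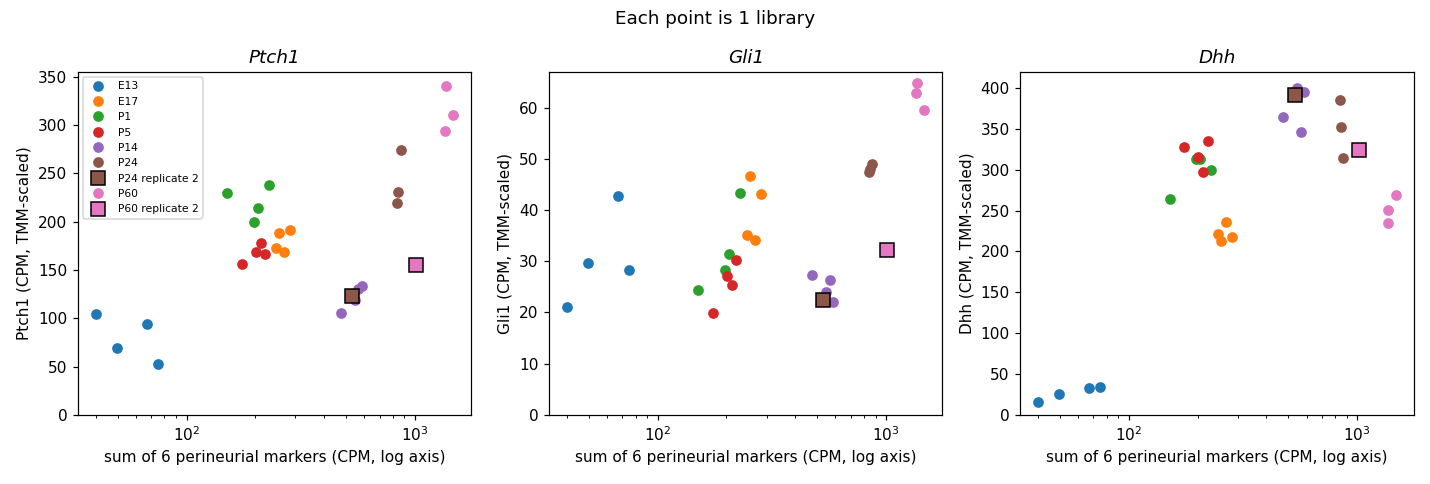
Level of Ptch1, Gli1 and Dhh (y axes, CPM on TMM-scaled library sizes) against the summed level of 6 perineurial markers (x axis, CPM, log axis), 1 point per library and 1 colour per stage, with replicate 2 of P24 and of P60 as squares. At P60 the square lies at 1014 CPM of markers and 155 CPM of Ptch1, away from the other 3 libraries at 294 to 340 CPM of Ptch1, while the P14 libraries have more perineurial marker RNA than those of P5 and less Ptch1.

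Between stages, the perineurial markers and the 2 targets Ptch1 and Gli1 went the same way in some comparisons and not in others. At E17 against E13, 2 of the 6 markers were called higher (median log2 fold change 1.57), and Ptch1 and Gli1 differed by 1.17 and 0.39. At P1 against E17 the median of the markers was -0.39, beside 0.29 for Ptch1 and -0.32 for Gli1, and at P5 against P1 it was 0.12, beside -0.40 and -0.31. At P14 against P5, 5 of the 6 markers were called higher (median 2.60), while Ptch1 and Gli1 differed by -0.45 and -0.04. At P24 against P14 the median was 0.70, beside 0.80 and 0.74, and at P60 against P24 it was 0.43, beside 0.38 and 0.39. At P60 against E17, all 6 were called higher (median 3.08), and Ptch1 and Gli1 differed by 0.61 and 0.46. Leaving out P24 and P60 replicate 2 was a choice made after seeing the data. As with all libraries, no member was then called at P24 against P14 or at P60 against P24. At P60 against E17, Boc was called besides Gli3 and Hhip. The other comparisons hold no P24 or P60 library, so their unchanged calls say little about this omission. Without replicate 2 of both stages, the log2 differences of Ptch1 and Gli1 were 0.98 and 0.95 at P24 against P14 (0.80 and 0.74 with all libraries). At P60 against E17 they were 0.80 and 0.65, and all were short of 2-fold.

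Beyond the 9 members, a list of 43 further pathway genes was examined, of which 42 were tested. In the test over all stages, 30 of the 42 (71.4%) were called, against 70.3% of all genes. At E17 against E13, 8 were called higher and 9 lower (35.5% of all genes were called), with a median log2 fold change of 0.02 against -0.08 over all genes. At P60 against E17, 9 were higher and 11 lower (39.7% of all genes), with a median of -0.02 against 0.00. The counts were 4 higher and 3 lower at P1 against E17 (11.7% of all genes), 1 and 2 at P5 against P1 (5.84%), 2 and 4 at P14 against P5 (12.0%), 2 and 1 at P24 against P14 (2.65%), and 1 and 1 at P60 against P24 (5.96%), with medians between -0.23 and 0.07.

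The other 2 hedgehog ligands were barely present. Shh, the Sonic hedgehog ligand, was at 1.13 ± 0.436 CPM at E13, had 0 counts in every E17 and P14 library and reached 1.01 ± 0.605 CPM at P60 (SD, n = 4), with 6 to 22 counts per library. Against 3 counts in the shallowest library, Shh was at least 5.97-fold lower at E17 than at E13, at least 1.90-fold higher at P24 than at P14 and at least 5.38-fold higher at P60 than at E17, and these 3 differences were called. The call at P24 against P14 (edgeR adjusted p = 0.0247) was lost in 6 of 17 alternatives, namely without any 1 of the 4 P14 libraries, without P24 replicate 1 and without replicate 2 of P24 and P60 (0.0502 to 0.0705). Ihh, the Indian hedgehog ligand, did not pass the filter and had at most 11 counts in a library, with stage means between 0.0546 and 0.225 CPM. No Dhh library from E17 on had under 212 CPM.

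Of the 6 tested genes of other ligands and ligand release, 3 were called lower at E17 than at E13 (35.5% of all genes were called), 2 higher and 1 lower at P1 than at E17 (11.7%), 1 higher at P5 than at P1 (5.84%) and 1 at P24 than at P14 (2.65%), and none at P14 against P5 (12.0%) or P60 against P24 (5.96%). At P60 against E17, 4 were higher and 2 lower, where 39.7% of all genes were called. Disp1, a transporter that lets lipid-bearing hedgehog proteins leave the cell, was at 13.8 ± 1.52 CPM at E17, 44.9 ± 11.6 CPM at P1, 101 ± 8.15 CPM at P5 and 128 ± 11.2 CPM at P60 (SD, n = 4). It rose by 1.70 ± 0.17 on the log2 scale from E17 to P1 (edgeR adjusted p = 8.7e-09), by 1.17 ± 0.16 from P1 to P5 (6.7e-06) and by 3.21 ± 0.18 from E17 to P60 (6.8e-15). The step to P5 was 0.97 with library size alone. Scube2 and Scube3, secreted carriers that help release the ligand, went in opposite directions at birth: Scube3 fell by 2.28 on the log2 scale from E17 to P1 (SE 0.27, edgeR adjusted p = 2.5e-07), and Scube2 rose by 1.84 ± 0.50 (0.00616). Scube2 had fallen by 3.10 from E13 to E17 (SE 0.49, 4.7e-06) and its level was low throughout, 0.326 ± 0.248 CPM at E17 and 1.19 ± 0.210 CPM at P1.

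Among receptors and co-receptors, Lrp2, an endocytic co-receptor, fell from 1.33 ± 0.443 CPM at E17 to 1 or 2 counts per library at P60 (edgeR adjusted p = 2.5e-05). Over the summed counts, 108 at E17 and 5 at P60, it was 16.3 times as high at E17, with an exact 95% Poisson interval from 6.77 to 51.2 that covers counting error only. It was also called lower at P14 than at P5, by 1.56, a call that ended without P5 replicate 2 or 4 or P14 replicate 2, 3 or 4 (-1.65 to -1.29).

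Of 14 transducers and GLI regulators, 3 were called higher and 1 lower at E17 against E13 (35.5% of all genes), 1 higher at P14 against P5 (12.0%), 2 higher and 2 lower at P60 against E17 (39.7%), and none in the other 4 comparisons. Evc, a protein of the cilium base that relays the signal of Smoothened, was at 20.3 ± 4.45 CPM at E13 and 81.5 ± 4.49 CPM at E17 (SD, n = 4) and rose by 2.01 ± 0.12 on the log2 scale (edgeR adjusted p = 6.9e-14). The stage means of its partner Evc2 went up at each step, from 16.3 ± 5.40 CPM at E13 to 60.6 ± 2.99 CPM at P5, 123 ± 14.8 CPM at P14 and 217 ± 19.9 CPM at P60. The steps from E17 to P1, P1 to P5, P14 to P24 and P24 to P60 were not called. The step from P5 to P14, 1.02 ± 0.16, was called (edgeR adjusted p = 1.2e-05) and fell under 2-fold with library size alone (0.85) and without P14 replicate 2 (1.00) or 3 (0.96). Of 7 genes of cilium transport, the machinery through which Smoothened and the GLI proteins move, 1 was called at E17 against E13 (35.5% of all genes) and none in any other comparison, P60 against E17 (39.7%) included.

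Of 11 genes known as pathway targets elsewhere, 4 were called higher and 4 lower at E17 against E13 (35.5% of all genes were called), and 3 higher and 5 lower at P60 against E17 (39.7%). At P60 against E17 their median log2 fold change was -0.08, with a range from -5.89 to 2.50. The cell cycle genes Ccnd1 and Foxm1 and the Wnt inhibitor Sfrp1 fell from E17 to P60, with log2 fold changes of -3.85 ± 0.29 (edgeR adjusted p = 4.3e-12), -5.89 ± 0.22 (1.9e-18) and -4.02 ± 0.25 (8.2e-14). Ccnd1 went from 1180 ± 55.4 CPM at E17 to 81.7 ± 8.92 CPM at P60 and Foxm1 from 144 ± 8.34 to 2.43 ± 0.231 CPM (SD, n = 4). Ccnd1 had risen by 2.08 ± 0.27 from E13 to E17 (edgeR adjusted p = 1.8e-07) and fell by 1.21 at P14 against P5 (SE 0.26, 7.8e-04). Foxm1 fell at P14 against P5 by 1.82 (SE 0.18, 8.9e-09), at P24 against P14 by 1.01 (SE 0.18, 8.1e-04) and at P60 against P24 by 1.44 (SE 0.21, 1.6e-05), the second of these at the edge of the 2-fold minimum: its call was lost in 11 of 19 alternatives (over all 19, values from -1.12 to -0.90) and in 9 omissions of a library from another stage. Sfrp1 fell by 1.68 from E17 to P1 (SE 0.22, 1.4e-06) and Ccnd2 by 1.47 from P1 to P5 (SE 0.17, 3.5e-07). These are genes of dividing cells or of other pathways as well.

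Other target genes went other ways. Foxf2, a forkhead factor of mesenchyme, was at 4.24 ± 1.04 CPM at E13 (SD, n = 4) with at most 2 counts in an E17 library. Over the summed counts, 430 at E13 and 5 at E17, it was 66.7 times as high at E13 (exact 95% Poisson interval 28.4 to 206), and it was called lower at E17 (edgeR adjusted p = 2.3e-07). Foxc2 fell by 1.84 between these stages (SE 0.26, edgeR adjusted p = 1.0e-06). Mycn rose by 1.27 ± 0.17 from E17 to P1 (edgeR adjusted p = 1.7e-06). The Notch ligand Jag2 rose by 1.16 ± 0.34 from P5 to P14 (edgeR adjusted p = 0.00963) and by 1.10 ± 0.33 from P24 to P60 (0.0217), and neither call held without each of its libraries: the former was 0.96 without P5 replicate 4, and the latter was 1.04, 1.02 and 0.93 without P24 replicate 2, P24 replicate 4 and P60 replicate 4. Foxl1, a forkhead factor of mesenchyme with stage means of at most 1.91 CPM, was called higher at P1 than at E17 (1.12 ± 0.39), lower at P5 than at P1 (by 1.19), lower at P14 than at P5 (by 2.36, SE 0.49, edgeR adjusted p = 4.8e-04) and higher at P24 than at P14 (1.80 ± 0.51). Of these 4 calls, the fall at P14 held in every alternative and the others were lost when any of several libraries was left out.

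The genes whose stage means ran closest to those of 4 members were sought among 12519 protein-coding genes, as a description with no test. The measure was the root mean square difference of log2 CPM stage means over the 7 stages, each gene centred on its own mean. For Dhh, the nearest were Itpr3 (0.13), Tbc1d8b (0.16), Tspan15 (0.18), Inka2 (0.19) and Aatk (0.21), against a median of 1.34 over all genes. Without E13 these genes were about as close (0.12 to 0.22) but ranked only between 112 and 1201, since many other genes were then as close. For Ptch1, they were Kctd9 (0.13), Pcgf5 (0.16), Fbln5 (0.18), Trdmt1 (0.18) and Rasgrp2 (0.20), against a median of 0.72, and they ranked between 4 and 35 without E13. For Gli1, they were Dpyd (0.13), Ing5 (0.14), Ddx23 (0.17), Samhd1 (0.18) and Tnfrsf1a (0.19), against a median of 0.61, ranked between 4 and 51 without E13. For Hhip, they were Kifc1 (0.20), Knstrn (0.20), Oip5 (0.22), Racgap1 (0.25) and Cenph (0.25), against a median of 2.00, and all of them stayed within the first 10 without E13. The products of these genes are known from cell division. Among the members themselves, Ptch1 and Gli1 were the closest pair (0.43), and Dhh and Hhip the farthest (2.66).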

How the data were processed

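The authors prepared poly-A stranded TruSeq libraries, aligned single-end reads with STAR 2.6.1c and counted reads per gene with featureCounts, and the values used here are their deposited raw counts, which were not normalized. The submitters' notes name the build GRCm38.p5, and the strand setting and the handling of reads with several matches are not given in the sources used here. Gene symbols, lengths and positions came from GENCODE M21 (99.79% of 41605 IDs matched), and promoter sequences from RefSeq.

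Genes were kept by filterByExpr (17700 genes) and scaled by TMM. All 28 libraries entered 1 edgeR quasi-likelihood fit (edgeR 4.0.16, R 4.3.3, robust) with stage as the only term, and SE is the size of the log2 fold change over the square root of F. The study names no differential test for this timeline. Calls needed a Benjamini-Hochberg adjusted p under 0.05 and at least 2-fold. Intervals for differences are 95% intervals (1.96 SE). Groups came from the labels. The p-values rest on each gene's spread between libraries within stages, pooled over all stages of the fit. They do not measure the spread between the 4 libraries of a compared stage alone.

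The 9 members, the pathway list, the marker lists and the tests were chosen with earlier results of these data known, and 2 genes of these lists are not reported here and are left out of every count and sum over a list. The text names the members in every comparison, at most 6 called genes of the pathway list per comparison by size of the log2 fold change, Shh and Ihh in any case, and the 5 genes nearest to Dhh, Ptch1, Gli1 and Hhip. A fold against a stage with 0 counts in every library is a lower bound set against 3 counts in the shallowest library and covers counting error only.

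Other settings tried were scaling by library size or by the size factors of DESeq2 (version 1.42.0), its Wald test, limma-voom with sample weights (limma 3.58.1), 2 other low-count filters, fits of only the pair of stages in question, fits lacking E13, a replicate block, calls without a fold minimum, omission of 3 libraries with GC trends, and omission of each library in turn. The smallest total, 13899895 counts, puts 3 counts at about 0.2 CPM, so that Hhip after P5, Shh and Ihh are limited by depth. No 2 replicates agreed within sampling noise.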

Additional observations from a re-analysis of the deposited data

Results flagged for a closer look

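Each of the 63 groups of 4 libraries (9 members at 7 stages) was checked for a library whose gap to the nearest of the others exceeded Dixon's 95% critical share of the group's range, and 4 groups had one, where chance alone flags about 1 group in 20. Gli1 at P24 was 22.4 CPM in replicate 2 against 47.5 to 49.0 CPM in the others (0.943 of the range). Gli1 at P60 was 32.1 CPM in replicate 2 against 59.5 to 64.8 CPM (0.838). Boc at P1 was 7.18 CPM in replicate 3 against 1.50 to 1.83 CPM (0.942). Smo at E17 was 125 CPM in replicate 3 against 106 to 109 CPM (0.853).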

How the results depend on the processing

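Of the called members, Dhh, Hhip, Boc and Gas1 at E17 against E13, Gli2 at P1 against E17, and Gli3 and Hhip at P14 against P5 and P60 against E17 kept their direction and their call under every alternative run. With library size only, the median of all genes moved from -0.08 to -0.33 at E17 against E13 and from 0.00 to -0.31 at P60 against E17 on the log2 scale, Ptch1 at E17 against E13 fell short of 2-fold (0.91), and Dhh at P60 against E17 reversed to -0.04, a difference that was not called in either setting. The cause of these changes was not tested beyond the shift of the median.

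The number of members called at P1 against E17 was 2, and it was 4 with no fold minimum, 3 with library size only (Gli3 added), 3 in limma-voom (Hhip added), 1 without the 3 libraries with GC trends (E13 replicates 1 and 4 and P1 replicate 1) and 1 to 3 when a replicate of these stages was left out. At P24 against P14 it was 1 with no fold minimum in place of 0. At P60 against P24 it was 1 with library size only, 1 with no fold minimum and 0 to 1 with a replicate left out (Gli2, without P24 replicate 4 or P60 replicate 2). At P5 against P1 it was 0 to 1 with a replicate left out (Boc, without P1 replicate 3). Of the pathway list, 31, 14, 8, 13 and 6 genes passed with no fold minimum at E17 against E13, P1 against E17, P5 against P1, P14 against P5 and P60 against P24. At P24 against P14 the list had 3 calls, with 0 when only these stages were fitted, 1 without replicate 2 of P24 and P60 and 0 to 2 with a replicate left out, and at P60 against P24 it had 1 to 3. Over all single genes named, leaving aside omissions of a library from a stage outside the comparison, 1021 values kept their direction and side of the threshold, 59 lost a call, 14 gained one and 1 reversed, with most losses in Foxl1, Foxm1, Shh, Lrp2, Boc and Jag2. Those omissions kept 1171 further values and ended 9 calls, all of Foxm1 at P24 against P14.

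Replicate numbers did not pair the libraries: deviations of same-numbered libraries in adjacent stages correlated between -0.06 and 0.29, and the numbers share no animal. With the replicate number as a block, the same members were called in all 7 comparisons (5, 2, 0, 2, 0, 0 and 2, in the order of the text), and Foxl1 at P24 against P14 lost its call (1.77). Hhip at P60 against P24 differed by -1.24 ± 0.63 on the log2 scale and was not called (edgeR adjusted p = 0.198). Its libraries held 8 to 53 counts at P24, where they ranged from 0.471 to 1.99 CPM, and 6 to 10 counts at P60.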
